A study of Mus musculus with 24 samples.

Results

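Microglia are the resident macrophages of the brain, and 10 genes that mark them were followed through the dorsal telencephalon of mouse embryos lacking Cep135, a centriole protein. The genes were chosen by name, C1qa, C1qb, C1qc, Csf1r, Cx3cr1, C3ar1, Tyrobp, Fcer1g, Fcrls and Laptm5, and all 10 were found among the 54658 genes of the table. RNA 3′ ends were sequenced in 24 libraries from 12 embryos. At E11.5 the cortices of 3 Cep135 (-/-) embryos (mutants A, B and C) and 3 Cep135 (+/+) embryos (controls D, E and F) came from 2 litters. At E14.5 the cortices of 3 mutants (embryos 1, 2 and 6) and 3 controls (embryos 3, 4 and 5) came from 1 other litter, and cells from each of these 6 cortices were also dissociated with papain and cultured as incipient neurospheres for 12 h or 24 h in medium with EGF and FGF2. The mutant allele is a small germline deletion made by CRISPR/Cas9, so the microglia of a mutant embryo carry it as well as its neural cells. Litters were inferred from the prefix of the sample names. Embryos B and C had TC48 in their titles, which were followed, but TL48 in their column names, while controls E and F had TC48 in both. Age was confounded with litter, and 1 label of embryo 6 gave its cortex as E11.5 where its title gave E14.5, which was followed.

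Microglia do not arise from neural progenitors. Their precursors form in the yolk sac, enter the embryonic brain from outside, and depend on signaling through the receptor encoded by Csf1r. In the developing cortex they clear dying cells and respond to complement and to the chemokine of neurons that binds CX3CR1. C1qa, C1qb and C1qc encode the 3 chains of C1q, which starts the classical complement cascade. Cx3cr1 encodes the fractalkine receptor, and C3ar1 encodes the receptor of the complement fragment C3a. Tyrobp (DAP12) and Fcer1g (the common Fc receptor gamma chain) encode adaptors that pass signals from immune receptors through ITAM motifs. Fcrls encodes an Fc receptor-like scavenger protein of microglia, and Laptm5 a lysosomal membrane protein of blood-derived cells. Macrophages at the borders of the brain express most of these genes too. In bulk RNA, more cells of a type and more RNA per cell cannot be told apart.

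The 10 genes lie on 7 chromosomes. C1qa, C1qc and C1qb are neighbors, in an interval of 18675 bases on chromosome 4 (GRCm38, chr4:136880129-136898803, minus strand). Promoter sequence was available for 7 of the 10 genes (RefSeq, GRCm38.p6). The 250 bases before the annotated start are shown for a pair of C1q genes, and for Cx3cr1 and C3ar1, the members with an adjusted p below 0.05 between genotypes. Capitals mark GAGGAA on either strand, which holds the GGAA core bound by PU.1, the product of Spi1 and a master regulator of macrophages. The sequences run 5′ to 3′ on the gene's strand: C1qb at chr4:136886201-136886450, C1qc at chr4:136892915-136893164, Cx3cr1 at chr9:120068297-120068546 and C3ar1 at chr6:122856158-122856407, all on the minus strand.
C1qb: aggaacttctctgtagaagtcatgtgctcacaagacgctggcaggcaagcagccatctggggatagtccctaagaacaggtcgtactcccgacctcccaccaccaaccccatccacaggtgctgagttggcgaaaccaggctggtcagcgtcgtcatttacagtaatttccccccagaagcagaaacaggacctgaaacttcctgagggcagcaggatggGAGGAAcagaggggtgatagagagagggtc
C1qc: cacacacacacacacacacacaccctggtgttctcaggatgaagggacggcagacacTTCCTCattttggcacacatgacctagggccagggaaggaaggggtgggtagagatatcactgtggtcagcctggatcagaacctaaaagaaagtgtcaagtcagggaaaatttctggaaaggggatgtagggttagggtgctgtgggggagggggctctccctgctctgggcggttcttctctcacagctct
Cx3cr1: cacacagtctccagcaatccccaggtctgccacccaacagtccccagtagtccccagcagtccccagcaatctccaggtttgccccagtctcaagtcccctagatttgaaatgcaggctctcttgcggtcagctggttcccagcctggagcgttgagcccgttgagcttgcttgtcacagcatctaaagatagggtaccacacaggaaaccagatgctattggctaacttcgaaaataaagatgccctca
C3ar1: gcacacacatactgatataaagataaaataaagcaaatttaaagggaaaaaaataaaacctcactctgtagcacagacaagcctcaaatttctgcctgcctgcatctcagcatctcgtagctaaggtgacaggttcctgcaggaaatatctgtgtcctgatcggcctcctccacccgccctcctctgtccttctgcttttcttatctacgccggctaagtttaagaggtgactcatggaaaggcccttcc
GAGGAA occurred in 4 of the 7 promoters (C1qb, C1qc, Fcrls and Laptm5) and in 23.3% of 32851 promoters of the same length. It lay 30 bases before the start of C1qb and 193 bases before that of C1qc, on the opposite strand. Cx3cr1 and C3ar1 held no match in this window. The GENCODE gene of Cx3cr1 (chr9:119901616-120069879) reaches further upstream than the RefSeq start, so this window lies inside it, and that of C1qc (chr4:136889804-136893065) begins within its window. The matches describe the letters of these windows, with nothing measured of the factor.

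All 10 genes were measured in every cortex, with 476 to 1321 reads over the 10 in each, and nearly vanished from the cultures, where the 10 together had 15 to 77 reads. Values are normalized read counts, the reads of a gene divided by 1 size factor for each library. Libraries held 4732781 to 11645213 reads on genes. Gm42418, a transcript that overlaps ribosomal RNA, took 6.11 to 34.8% of the summed values. The mRNA of Cep135 did not differ detectably between genotypes, at 303 ± 50.1 for the E11.5 mutants against 329 ± 42.2 for their controls (SD, n = 3 each). At E14.5 Cep135 was 227 ± 54.7 against 206 ± 56.5. Reads of 3′ ends do not cover the deletion, so this does not check the labels. Defining markers of microglia outside the 10 were present but low in the cortices. Aif1 ranged from 9.68 to 39.2, Trem2 from 3.61 to 15.7 and P2ry12 from 1.29 to 13.8.

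**Figure D1:**
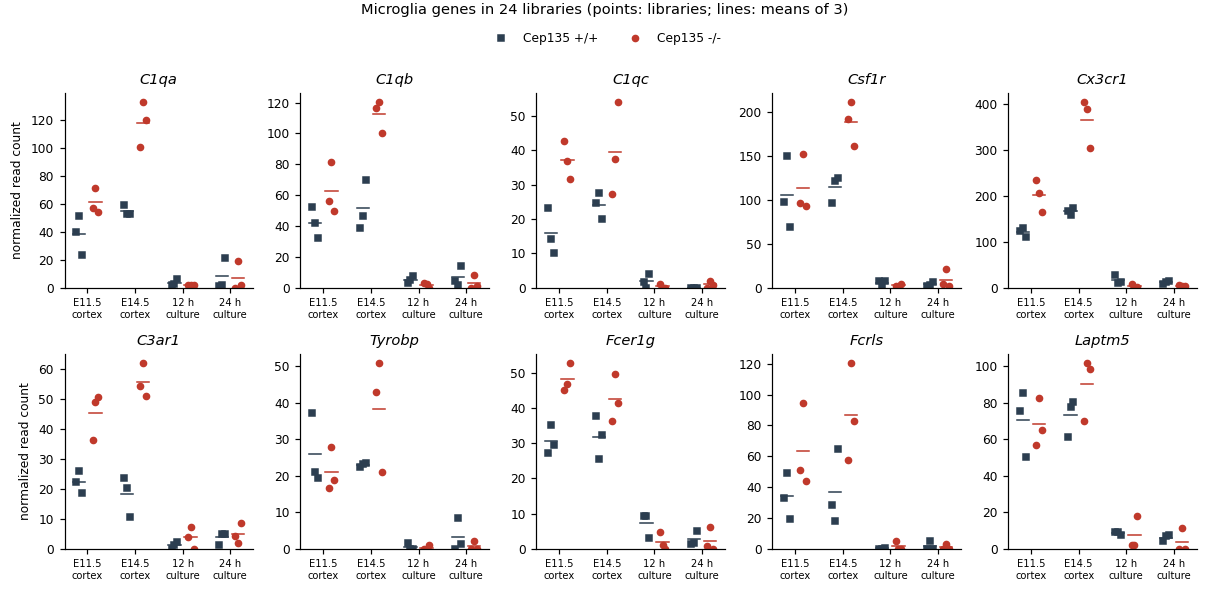
Normalized read count (vertical axis, from 0) of each of the 10 genes in all 24 libraries, by stage and culture time. Squares are Cep135 (+/+) and circles Cep135 (-/-) libraries, and lines are means of 3. In the E14.5 cortex the mutants had 304 to 405 of Cx3cr1, against 159 to 174 for the controls, and no culture library exceeded 28.3.

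In the E14.5 cortex all 10 genes were higher in the mutants, by a fold of group means from 1.23 for Laptm5 to 3.07 for C3ar1. Only Cx3cr1 passed the test across all genes. Summed over the 10 genes, the mutants had 1102, 1275 and 1034, against 560, 571 and 652 for the controls. The lowest mutant was thus well above the highest control.

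Mutants 1, 2 and 6 had 405, 390 and 304 of Cx3cr1, against 168, 159 and 174 for controls 3, 4 and 5. Every mutant lay far above every control. The difference was 1.12 ± 0.16 on the log2(value + 1) scale (SE), with an adjusted p of 0.0269 (limma, Benjamini-Hochberg over 13583 genes), when 0.0442% of the genes tested were called higher. This call rested on all but 2 of the 6 libraries. The adjusted p was 0.162 without mutant 1, 0.301 without mutant 2, 0.0851 without control 3 and 0.239 without control 4, with differences of 1.04 to 1.12. Without mutant 6, the embryo with the conflicting label, it was 0.00904, and Cx3cr1 was again the 1 member called. The 3 controls were all male and mutants 1 and 2 female. With a term for sex the difference of Cx3cr1 was 0.86 and its adjusted p 0.429. Male mutant 6, at 304, was above all 3 male controls.

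The complement chains followed. C1qa was 100.5, 132 and 120 for the mutants, against 58.8, 52.3 and 52.3. C1qb was 116, 120 and 100 against 38.8, 46.5 and 69.7. Neither overlapped between genotypes, but their adjusted p were 0.112 and 0.200, at log2 differences of 1.09 ± 0.19 and 1.14 ± 0.24. DESeq2 on whole reads called both, along with Cx3cr1 and C3ar1, and edgeR only Cx3cr1. C1qc, at 27.1, 37.5 and 54.0 against 24.7, 27.6 and 20.1, overlapped by mutant 1 and control 4 alone (0.65 ± 0.31, adjusted p = 0.559).

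The other receptors differed in size of effect. C3ar1, the C3a receptor, had the widest difference of the 10, with 54.2, 61.8 and 50.9 for mutants against 23.5, 20.3 and 10.5 (1.64 ± 0.32, adjusted p = 0.189). Csf1r, the receptor microglia need for survival, was 192, 211 and 161 for mutants against 96.5, 121 and 125 (0.72 ± 0.18, adjusted p = 0.324). In both genes every mutant was above every control.

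The adaptors and the remaining members overlapped between genotypes. Tyrobp was 42.9, 50.8 and 21.1 for mutants against 22.4, 23.2 and 23.5, so mutant 6 fell below all controls (0.62 ± 0.34, adjusted p = 0.604). Fcer1g was 36.1, 49.7 and 41.5 against 37.6, 25.4 and 32.3 (0.41 ± 0.26, adjusted p = 0.642). Fcrls varied most within genotypes, with 57.6, 120 and 83.0 for mutants against 28.2, 18.1 and 64.5 (1.34 ± 0.41, adjusted p = 0.429). Laptm5 was closest to no difference, with 70.0, 102 and 98.7 against 61.2, 77.7 and 80.2 (0.29 ± 0.21, adjusted p = 0.687).

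The median difference of the 10 genes at E14.5 was 0.90 and that of all genes tested 0.01, and 6 of the 10 had an unadjusted p under 0.05. Mutants and controls did not overlap in 5 of the 10 (C1qa, C1qb, Csf1r, Cx3cr1 and C3ar1), against 7.02% of all genes tested in this direction. Within males, mutant 6 was above the 3 controls in 9 of 10 genes, Tyrobp being the exception, when 23.6% of all genes tested lay so. The study itself named C1qa, C1qb, C3ar1 and Cx3cr1 in gene lists drawn from these samples, so their direction at E14.5 is not independent evidence.

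**Figure D2:**
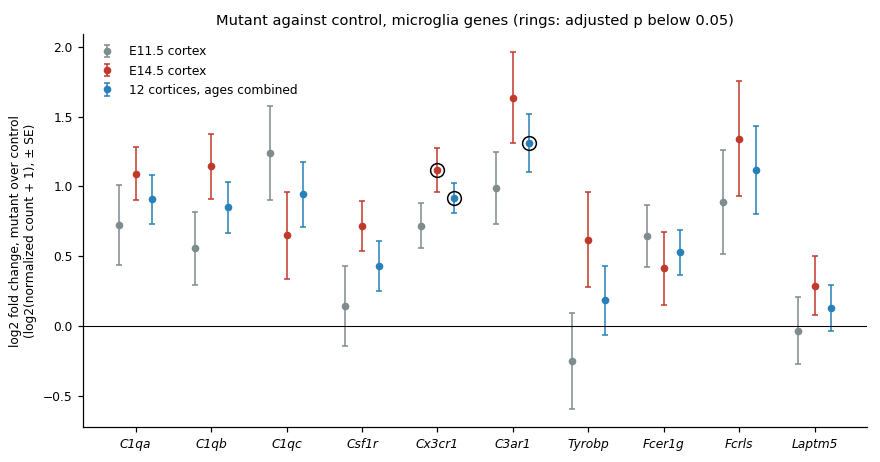
Log2 fold change of mutant over control (vertical axis, log2 of the normalized count + 1, ± SE) for each gene at E11.5, at E14.5 and over all 12 cortices. Rings mark an adjusted p below 0.05, which Cx3cr1 reached at E14.5 and over the 12 cortices, and C3ar1 over the 12 cortices. Tyrobp and Laptm5 lay below 0 at E11.5.

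At E11.5 the same direction was seen in 8 of the 10 genes, and none passed the test across 13406 genes, of which 0.0149% were called higher. The median difference was 0.68, against 0.90 at E14.5, but C1qc and Fcer1g differed more than at E14.5. Mutants A, B and C had a summed level of 692, 850 and 624, against 532, 603 and 382 for controls D, E and F. The lowest mutant was only slightly above the highest control. No member was called by edgeR or DESeq2 on whole reads either, and 6 of the 10 had an unadjusted p under 0.05 in limma.

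Cx3cr1 was 234, 207 and 165 for mutants against 124, 130 and 111 (0.72 ± 0.16, adjusted p = 0.380). C1qc differed most, with 42.6, 36.8 and 31.7 against 23.2, 14.2 and 10.1 (1.24 ± 0.34, adjusted p = 0.566). C3ar1 was 36.1, 49.1 and 50.5 against 22.2, 25.9 and 18.7 (0.99 ± 0.26, adjusted p = 0.544). In these genes, as in C1qa (54.1 to 71.4 against 23.3 to 51.0) and Fcer1g (45.2 to 52.6 against 27.2 to 35.1), every mutant was above every control. That makes 5 of 10, against 7.16% of all genes in this direction. C1qb overlapped through control D (49.8 to 81.4 against 31.9 to 52.4), and Fcrls through control E (44.0 to 94.8 against 19.4 to 49.3).

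Csf1r, Tyrobp and Laptm5 showed no separation at E11.5. Csf1r was 96.1, 152 and 93.0 for mutants against 97.7, 149.7 and 68.4 (0.14 ± 0.28, adjusted p = 0.910). Tyrobp was 16.8, 27.9 and 18.7 against 37.3, 20.9 and 19.4 (-0.25 ± 0.34, adjusted p = 0.865), and control D was the highest of the 6. Laptm5 was 56.8, 82.5 and 64.9 against 75.6, 85.3 and 50.5 (-0.03 ± 0.24, adjusted p = 0.977). The directions of these 3 genes turned when single libraries were left out.

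The 2 litters at E11.5 gave the following. In the litter of A and D, mutant A was above control D in 7 of 10 genes, all but Csf1r, Tyrobp and Laptm5, against 54.3% of all genes tested. In the other litter, both mutants were above both controls in 6 of 10 genes (C1qa, C1qb, C1qc, Cx3cr1, C3ar1 and Fcer1g), against 18.9% of all genes.

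Taking the 12 cortices together, with each age given its own mean, 2 of the 10 genes passed the test, Cx3cr1 and C3ar1, when 0.132% of 13650 genes were called higher. Cx3cr1 was higher in the mutants by 0.92 ± 0.11 (log2, adjusted p = 0.00199) and remained below an adjusted p of 0.05 in all 22 alternative fits, at 0.84 to 0.99. C3ar1 was higher by 1.31 ± 0.21 (adjusted p = 0.0190), and was called in 13 of 21 alternatives. Its adjusted p was 0.189 with a term for sex and 0.0523 to 0.0933 without mutant B, C, 1 or 2 or control D or F. Without the litter of A and D it was 0.0840. Cx3cr1 and C3ar1 were higher in 6 of 6 mutants than in every control of their age.

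The C1q genes came next. C1qa was higher by 0.91 ± 0.18 (adjusted p = 0.0578), C1qb by 0.85 ± 0.18 (adjusted p = 0.0977) and C1qc by 0.94 ± 0.23 (adjusted p = 0.166). None passed the threshold, while DESeq2 on whole reads called all 3 (adjusted p = 0.00113, 0.00695 and 0.0336). Fcrls, at 1.12 ± 0.31, Fcer1g, at 0.53 ± 0.16, and Csf1r, at 0.43 ± 0.18, had adjusted p of 0.263, 0.323 and 0.483. Tyrobp (0.18 ± 0.25) and Laptm5 (0.13 ± 0.16) were within 1 SE of 0.

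An exact two-sided permutation test of genotype within ages, which cannot go below 0.005 here, gave that value for C1qa, Cx3cr1 and C3ar1. It gave 0.01 for C1qb, C1qc and Fcer1g, 0.025 for Fcrls, 0.1 for Csf1r, 0.48 for Laptm5 and 0.535 for Tyrobp. C1qa, Cx3cr1 and C3ar1 were the 3 genes without overlap at both ages, against 0.813% of all genes. All 3 are among those the study named from these samples, so their results over the 12 cortices are not independent evidence. With 3 embryos a genotype, the same exact test within 1 age cannot go below 0.1. The difference between genotypes did not itself differ detectably between ages in any member (0 of 10 called, 0 at an unadjusted p under 0.05), and neither edgeR nor DESeq2 called one. In this contrast 0% of all genes were called, in either direction. The interval stayed wide: the change of the difference was 0.40 ± 0.22 for Cx3cr1 and 0.87 ± 0.50 for Tyrobp.

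The members did not move as 1 block. Over the 45 pairs of genes in the 12 cortices, Pearson's r ran from 0.00 (Tyrobp with Fcer1g) to 0.92 (C1qa with Cx3cr1), with a median of 0.65. These points share libraries, litters and depth, so the values are a description. In E14.5 mutants Cx3cr1 made up 32.2% of the summed level of the 10, against 28.2% for controls, with overlap (29.4 to 36.8% against 26.7 to 30.0%). Laptm5 made up 7.95% against 12.3% at E14.5, and 9.44% against 13.9% at E11.5, without overlap at either age. Fcer1g made up 3.73% against 5.37% at E14.5, also without overlap, but 6.82% against 6.22% at E11.5, with overlap. The share of C3ar1 was higher in mutants without overlap at both ages, at 4.85 to 4.92% against 1.60 to 4.202% at E14.5 and 5.22 to 8.08% against 4.17 to 4.88% at E11.5. At E11.5 the shares of Csf1r (13.9 to 17.8% against 17.9 to 24.8%) and Tyrobp (2.43 to 3.28% against 3.47 to 7.01%) were lower without overlap, and at E14.5 both overlapped. These genes were singled out after their values were seen, and no share over all genes was counted beside them. Parts of 1 sum are also tied, so a larger share of 1 gene lowers those of the rest.

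Genes of other cells were read beside these differences. The endothelium list, a non-neural cell type that also enters the cortex with the vessels, summed to 1110 to 1258 for E14.5 mutants, against 1118 to 1266. The ranges of this list overlapped, and the 10 microglia genes divided by it gave 0.93 to 1.01 against 0.50 to 0.52. At E11.5 this ratio overlapped, at 0.415 to 0.588 against 0.296 to 0.486, and 7 of 9 tested endothelium genes were higher in mutants, none called. The 9 genes of border macrophages (such as Mrc1, Pf4 and Lyve1) summed to 282 to 407 against 229 to 321 at E14.5, with overlap. At E11.5 they summed to 397 to 436 against 241 to 379, without overlap. None of the 5 measured members of that list passed the test at either age.

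Neuron genes moved with the genotype at E14.5. The 10 genes of this list summed to 31159 to 33569 for mutants, against 40863 to 43588, without overlap. All 10 were lower, 1 was called, and their median log2 difference was -0.31. At E11.5 the sums overlapped, 9419 to 10200 against 9017 to 13439, and all 10 were lower (median -0.32, none called). Liver genes stood apart in single libraries, which within each age were of 1 genotype. They summed to 1003 and 1060 in controls 4 and 5 and to 853 in mutant C, and to 6.22 to 15.6 in 8 of the other 9 cortices, mutant A having 203. At E14.5 all 7 tested liver genes were lower in mutants (median -3.87) and at E11.5 all 5 were higher (median 3.21), each with an unadjusted p under 0.05 and none called. Cx3cr1 was 168 in control 3, whose liver sum was 10.6, and 159 and 174 in controls 4 and 5. The part of these cell types in the microglia genes was not tested, and 1 library cannot decide it.

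**Figure D3:**
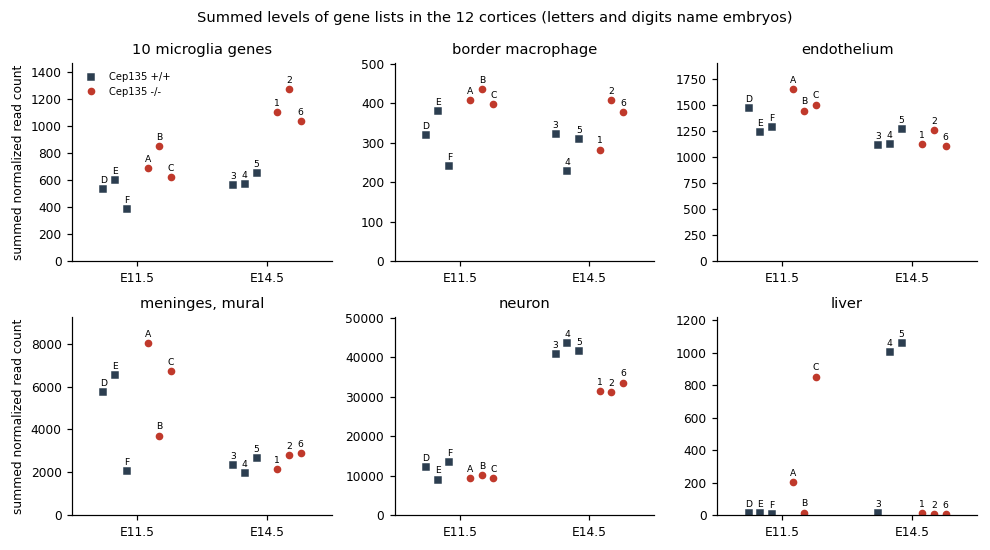
Summed normalized read counts (vertical axes, from 0) of the 10 microglia genes and of 5 lists of other cells in the 12 cortices. Squares are controls, circles mutants, and each point carries the name of its embryo. The microglia sum of E14.5 mutants (1034 to 1275) stood above controls (560 to 652), the endothelium sums overlapped, and the neuron sums of mutants were lower.

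A further list held 31 genes used as microglia or macrophage markers, chosen without regard to how they moved, though with earlier results of these data known. At E14.5, 18 were high enough to test and 13 of the 18 were higher in mutants, with a median of 0.53. At E11.5 the count was 14 of 18 and the median 0.38. None was called at either age, or over the 12 cortices, where 14 of 17 were higher, and at most 4 had an unadjusted p under 0.05.

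Ctss, the lysosomal protease cathepsin S, was the other gene most like the 10 members over the 12 cortices (r = 0.92 with their mean log2 level). It was 84.8 ± 16.6 in E14.5 mutants against 50.02 ± 2.75 (SD, n = 3 each), and its log2 difference over the 12 cortices was 0.75 ± 0.17 (adjusted p = 0.128). Spi1, which encodes PU.1, was 31.9 ± 3.67 and 19.5 ± 1.54 at E14.5. Over the 12 cortices Spi1 differed by 0.69 ± 0.20 (adjusted p = 0.293). Irf8, a partner of PU.1 in macrophages, differed by 0.51 ± 0.24 (adjusted p = 0.543) and Runx1, a factor of blood cell formation, by 0.49 ± 0.34 (adjusted p = 0.694).

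The ligands of the receptors did not differ detectably between genotypes. Csf1, which activates the Csf1r product, was 18.8 ± 1.55 in E14.5 mutants against 25.7 ± 8.77. Il34, its other ligand, made by neurons, was 17.9 ± 6.5 and 13.7 ± 5.04. Cx3cl1, the ligand of CX3CR1, was 21.7 ± 12.7 and 30.2 ± 11.4. C3, the source of C3a, was 5.4 ± 5.02 and 27.3 ± 22.8, and its controls ranged from 1.18 to 43.6. The lowest, 1 read, was control 3, whose liver list summed to 10.6, against 1003 and 1060 in controls 4 and 5. The part of liver signal in the level of C3 was not tested. Over the 12 cortices the adjusted p of these 4 genes were 0.883 to 0.978. Among the 9 tested genes of the ligand list Tgfb1, a cytokine microglia depend on, had the smallest p and was picked out for it. It was 41.4 ± 11.6 and 21.97 ± 4.42 at E14.5 (0.89 ± 0.20 over the 12 cortices, adjusted p = 0.113).

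The genes by which phagocytes bind and engulf dying cells showed no common direction. Of the 10 genes of that list, 9 were tested over the 12 cortices, 5 were higher and 4 lower in mutants, and none was called. The median was 0.02. Of 13 genes of activated or phagocytic microglia, 6 were tested, and 4 were higher, none called. Lgals3 (galectin-3), noted for its low p and not by rule, was 25.2 ± 9.53 in E14.5 mutants against 9.02 ± 5.47.

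Between E11.5 and E14.5, 4 of the 10 genes rose, when 24.1% of all genes tested were called higher. The 4 were C1qa by 0.76 ± 0.18 (log2, adjusted p = 0.00194), C1qb by 0.57 ± 0.18 (adjusted p = 0.0154), Cx3cr1 by 0.66 ± 0.11 (adjusted p = 1.4e-04) and Csf1r by 0.46 ± 0.18 (adjusted p = 0.0407). The call of Csf1r was lost in 10 alternatives. C3ar1 (-0.02 ± 0.21) and Fcer1g (-0.07 ± 0.16) did not pass. The E14.5 controls lay within the range of the 6 E11.5 cortices in 7 of 10 genes, against 14.6% of all genes tested. That range includes the E11.5 mutants, so it does not show that control levels held. Cx3cr1 was 159 to 174 in the E14.5 controls and 111 to 130 in the E11.5 controls. C1qa was 52.3 to 58.8 and 23.3 to 51.0, and the other members overlapped between these control groups. The share of all genes without such overlap was not counted. All 3 E14.5 mutants lay above all 6 E11.5 cortices in 5 of 10 genes (C1qa, C1qb, Csf1r, Cx3cr1 and C3ar1), against 18.8% of all genes. Age and litter cannot be told apart here.

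Other macrophage genes differed between the ages in both directions. Of the 17 tested genes of the microglia list, 3 rose and 3 fell, when 3283 of 13650 genes were called higher and 4033 lower. These counts do not set the list apart from all genes. Spi1 rose by 0.70 ± 0.20 (adjusted p = 0.00879) and Ctss by 0.57 ± 0.17 (adjusted p = 0.0117). Tmem119, a microglia marker also made by mesenchyme, fell by 2.58 (log2, SE 0.37, adjusted p = 3.0e-05), and Runx1 fell by 1.44 (SE 0.34, adjusted p = 0.00244). Il34 rose by 1.496 ± 0.34 (adjusted p = 0.00171). Of 5 tested border macrophage genes, Lyve1 and Mrc1 rose and Pf4 fell.

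In culture the microglia genes were all but lost within 12 h. All 10 fell against the E14.5 cortex at 12 h (log2 changes of -3.16 to -5.16), and all 10 at 24 h (-2.72 to -5.05), when 17.7% and 15.4% of 13547 genes were called lower. No member averaged 10 in the cultures, so all 10 were tested only because of their cortex levels, and the count of 10 cannot be read against the share of all genes. Each member was called in every alternative that tested it, C1qc not being tested without the cortex of mutant 2 or 6, nor Tyrobp without that of mutant 1 or 2. In the main fit the largest adjusted p was 3.6e-04 at 12 h and 0.00143 at 24 h. Over the alternatives it was 0.0117 at 12 h (C1qc) and 0.0386 at 24 h (C3ar1). In every one of the 10, every culture library was below every E14.5 cortex, at both times, against 7.45% of all genes at 12 h and 9.56% at 24 h. For the same reason this count cannot be read against those shares either. Because many values were 0 to 3 reads, the fitted changes depend on the pseudocount, and the share of the cortex level is given from the means.

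Cx3cr1 averaged 267 in the 6 cortices, 9.81 in the 6 cultures at 12 h (51 reads) and 7.62 at 24 h (39 reads), or 3.68% and 2.86% of the cortex level. Csf1r kept 2.66% at 12 h (24 reads) and 4.22% at 24 h (37 reads). Both remained above 0 in all 12 cultures. C1qa kept 3.07% and 8.77%, and the 24 h mean rested on mutant 2 (19.2) and control 5 (21.3), the other 4 libraries having 0.00 to 1.75. C1qb kept 4.16% and 5.80%.

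Tyrobp and Fcrls were near the limit of detection. Tyrobp had 2 reads in the 6 cultures at 12 h, against 189 in the cortices, a pooled ratio of 1.16% with an exact 95% interval of 0.139 to 4.24% that covers counting error only. C1qc had 3 reads at 24 h, against 209 (1.64%, 0.335 to 4.85%). Fcrls was at 0 reads in 4 of 6 cultures at each time and kept 1.52% and 2.18%.

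C3ar1, Fcer1g and Laptm5 kept more in places. C3ar1 kept 6.65% at 12 h and 12.0% at 24 h, Fcer1g 12.5% and 6.67%, and Laptm5 9.89% and 6.02%. The counting intervals of C3ar1 at 24 h (8.27 to 19.5%) and Fcer1g at 12 h (7.04 to 17.1%) lay above those of Cx3cr1 at the same times (1.89 to 3.67% and 2.49 to 4.43%), though the spread between embryos is not in them. With 2 to 51 reads of a member over the 6 libraries of a culture time, 12 h and 24 h could hardly be compared. No member was called between them (0 of 10, none with an unadjusted p under 0.05, and none by edgeR or DESeq2), which does not show that levels held, when 0.332% of genes were called higher and 0.332% lower.

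For each embryo the sum over the 10 genes kept 1.32 to 11.2% of that embryo's own cortex at 12 h (median 4.70%) and 1.43 to 11.503% at 24 h (median 4.89%). Genes of some other cells from outside the neural lineage were low as well. The border macrophage list kept a median of 3.84% and 3.24%, the endothelium list 7.13% and 3.21%, and the list of meningeal and mural cells 7.55% and 9.30%. The summed neuron list stood at 102% and 102%. The summed progenitor list stood at 93.3% and 104%, but most of its genes fell: 7 of 10 were called lower at 12 h and 8 of 10 at 24 h, with median log2 changes of -0.95 and -0.98. Hes5, a Notch target, changed by -4.23 ± 0.15 at 12 h, while Vim, which encodes vimentin, was called higher (0.88 ± 0.08). The erythroid list, led by hemoglobins, was above its cortex level, at 280% and 138%.

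**Figure D4:**
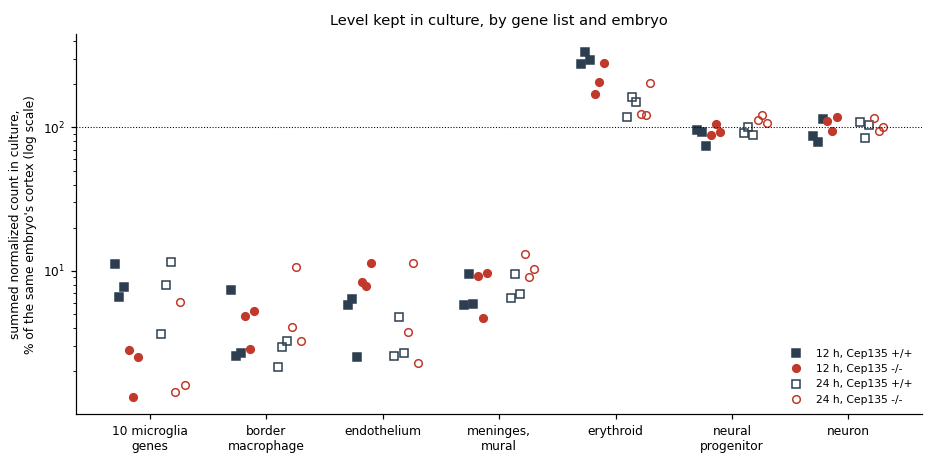
Summed normalized count of each gene list in culture as a percent of the same embryo's cortex (vertical axis, log scale), for the 6 embryos of the E14.5 litter. Filled symbols are 12 h and open symbols 24 h, squares controls and circles mutants, and the dotted line is the cortex level. The 10 microglia genes lay at 1.32 to 11.503%, while the summed progenitor and neuron lists had medians of 93.3 to 104% and the erythroid list lay above the line. Sums follow the abundant genes of a list.

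Other macrophage genes mostly fell too, but the further list of 31 microglia genes kept more of its level than the 10 members. Its sum kept a median of 39.9% of the cortex level at 12 h and 34.9% at 24 h. The list of activated phagocytes kept 51.0% and 58.8%. Such sums follow the abundant genes of a list. Of the 12 tested genes of the microglia list, 8 fell at 12 h and 8 at 24 h. Their median log2 change at 12 h was -1.79, against -4.44 for the 10 members. The log2 change at 12 h was -3.84 ± 0.54 for Ctss, -4.38 ± 0.67 for Aif1, -3.86 ± 0.69 for Fcgr3, -3.61 ± 0.67 for Cyth4 and -3.29 ± 0.65 for Ikzf1. Of the 5 tested border macrophage genes all 5 fell at both times, among them Mrc1 (-5.41 ± 0.56) and F13a1 (-5.57 ± 0.65) at 12 h. No gene of the border list averaged 10 within a culture time. In the microglia list 5 genes did at 12 h and 4 at 24 h. Genes below that mean were tested only because of their cortex levels, so these counts cannot be read against the share of all genes. Spi1 was too low to test, with 25.7 in the cortices and 1.39 and 1.19 in the cultures. Cd68, Coro1a, Olfml3 and Runx1 of the microglia list were not called at either time, and are named because they did not pass. None of these 4 is confined to microglia.

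Genes linked to activated phagocytes went both ways. Axl changed by -2.15 ± 0.27 (log2) and Igf1 by -1.77 ± 0.29 at 12 h, and both also fell at 24 h. Lgals3 rose by 1.66 ± 0.34 at 12 h (adjusted p = 9.6e-04) and by 2.03 ± 0.34 at 24 h (adjusted p = 1.3e-04). Spp1 (osteopontin) fell by 1.65 (SE 0.62, adjusted p = 0.0443) at 12 h and rose by 1.82 ± 0.62 at 24 h (adjusted p = 0.0291), with means of 4.04 and 34.2. Cells other than microglia also express these genes. Of the ligands, Csf1 fell by 1.54 at 24 h (SE 0.51, adjusted p = 0.0262), and Cx3cl1 did not pass (0.13 ± 0.46 at 12 h).

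In the cultures no member reached the mean of 10 needed for the test of genotype within a time, so the main fit gave no value. Without the filter limma called none at either time. Cx3cr1 at 12 h was fitted in 4 alternatives, at -2.98 to -1.87 (log2, limma adjusted p of 0.81 to 0.99). Of the 10 genes, 2 were higher in mutants at 12 h (C3ar1 and Fcrls) and 3 at 24 h (C1qc, Csf1r and C3ar1), all with overlap. C3ar1 averaged 3.76 against 1.151 at 12 h and 5.02 against 3.81 at 24 h. At 12 h mutants 1, 2 and 6 had sums of 31.2, 16.8 and 26.0 over the 10 genes, against 62.9, 37.6 and 50.1 for controls 3, 4 and 5, so every mutant was below every control. At 24 h the sums were 15.8, 77.9 and 16.6 against 20.48, 45.5 and 75.0, with overlap, mutant 2 being the highest of all 6.

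Cx3cr1 carried much of this. It was 7.80, 1.05 and 0.90 for mutants against 28.3, 9.39 and 11.4 at 12 h (10 and 41 reads), and 6.45, 3.04 and 2.62 against 6.83, 11.8 and 15.0 at 24 h (15 and 24 reads). Every mutant was below every control at both times. The closest pair at 24 h was mutant 1, with 9 reads, and control 3, with 5, so their order rested on the size factors. Depth was split by genotype at 24 h, with 7903426 to 11645213 reads on genes in mutants and 4732781 to 5709443 in controls. The exact permutation test gave p = 0.1 each time, the smallest value it can give with 3 embryos a genotype (two-sided). C1qb did so at 12 h only, with 2.93, 2.10 and 0.00 against 3.15, 4.70 and 7.59 (exact permutation p = 0.1). Mutant 1 had 3 reads of it there and control 3 had 2, so their order rested on the size factors. That is 2 of 10 genes at 12 h and 1 of 10 at 24 h, where 5.94% and 9.06% of all genes with a mean of at least 10 lay so, a mean these members did not reach. No member had every mutant above every control.

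The change of the genotype difference from cortex to culture was tested over the 18 libraries of that litter. For Cx3cr1 it was -3.38 ± 0.78 at 12 h (log2, unadjusted p = 3.2e-04, adjusted p = 0.696) and -2.41 ± 0.78 at 24 h (unadjusted p = 0.00579, adjusted p = 0.9996). No member was called in limma, where 0% of all genes were called lower at either time. DESeq2 on whole reads called Cx3cr1 alone, with adjusted p of 0.00373 and 0.0412. Leaving out mutant 1 at 12 h, limma also called 1 member at that time. Which cells carried the remaining reads was not tested.

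Over all 24 libraries the genes most like the mean of the 10 members were Ctss, Egflam, Cd93, Icam2, F13a1, Cyth4, Vwf, Cd34, Adgrf5 and Acvrl1, with r of 0.96 to 0.97 among 13678 genes. Several of them, such as Cd93, Icam2, Vwf and Cd34, are markers of endothelium. The members themselves had r of 0.87 (C3ar1) to 0.97 (Csf1r) with their own mean. The 24 points hold 12 cortices and 12 cultures, between which all 10 members differ, and share libraries and depth. Over the 12 cortices alone, the most like were Ctss (0.92), Rps6ka2, Slc4a8, 4930480K23Rik, Zfp9, Cars2, Calcoco1, Ctsd, Zbtb37 and Cobl (0.83 to 0.86), none an endothelial marker, while Ctss and Ctsd encode lysosomal proteases.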

How the data were processed

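RNA of cortices and neurospheres was made into oligo(dT)-primed QuantSeq 3′ libraries, so each transcript gives reads near its 3′ end. The authors aligned reads to GRCm38 with TopHat 2.0.10 and Bowtie 1.0.0 (SAMtools 0.1.19), counted them by strand with HTSeq 0.6.1 and normalized them with DESeq2, as the study's methods and the submitters' processing notes state. The table the authors deposited holds a signal value per gene, the read count divided by a size factor per library. Dividing each library's values by its smallest step gave whole reads for 100% of them (tolerance 0.01 read), and so the depth. Input RNA differed between samples, which was not stated for each library.

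The main test was limma 3.58.1 (trend) in R 4.3.3 on log2(value + 1), keeping genes that averaged 10 or more across the fitted libraries and adjusting over all of these by Benjamini-Hochberg, at a threshold of 0.05. Fold changes on this scale understate those of low genes. Fits were made for 3 mutants against 3 controls in each condition, for the 12 cortices and for the 18 libraries of the E14.5 litter, each with a mean per group. Counting error is given as exact Clopper-Pearson 95% intervals and applies to reads, which are not independent molecules. Alternatives were a pseudocount of 0.1 or 5, no filter on low values or a minimum mean of 50, TMM rescaling, edgeR 4.0.16 and DESeq2 1.42.0 on whole reads, a term for sex (from Xist and Y-linked transcripts), blocks for litter or embryo and leaving out each library. Scripts were tested on simulated counts. Named genes were the 10 members, up to 5 passing genes of each other list, the 10 most like genes, 7 ligands and factors, and Cep135. Genes named outside this rule are marked. The members and lists were chosen with earlier results of these data known. Replicates are single embryos. The labels tie the culture libraries to the embryo of each cortex, and deviations of the same embryo correlated at -0.111 to 0.243 over 18 pairs (median 0.145, 12 over 0.1). Coordinates are from GENCODE vM21, while the study used another release of the same build.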

Additional observations from a re-analysis of the deposited data

Results flagged for a closer look

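For Cx3cr1 every mutant was above every control in the E14.5 cortex and below every control at 12 h and at 24 h, where it had 10 against 41 and 15 against 24 reads, below the mean of 10 required within a culture time. The interaction of genotype and culture was -3.38 (log2) at 12 h and -2.41 at 24 h, with adjusted p of 0.696 and 0.9996 in limma and 0.00373 and 0.0412 in DESeq2, so a change of direction was not established in limma. At 24 h Cx3cr1 was the 1 of 10 members with every mutant below every control, a share near the 9.06% of all genes. There mutant 1 had 9 reads of it and control 3 had 5, and all mutant libraries were deeper than all controls. C1qb showed the same pattern at 12 h, with an interaction of -2.50 (SE 1.14, adjusted p = 0.696 in limma and 0.552 in DESeq2). It had 5 reads in the 3 mutants and 16 in the 3 controls at 12 h. Of these, mutant 1 had 3 and control 3 had 2, so the order of this pair rested on the size factors. Groups of 3 libraries were not examined for single outlying values.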

How the results depend on the processing

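The count of members called between genotypes at E14.5 was 1. It was 3 without a filter, 4 with DESeq2 and 0 with a term for sex, and 0 to 3 when single libraries were left out. Over the 12 cortices it was 2. It was 1 at a mean of at least 50, 5 with DESeq2, 1 with a term for sex and 1 without the litter of A and D (a choice made after seeing the data), and 1 to 3 when single libraries were left out. In culture all 10 members fell, and 2 at a mean of at least 50, where 2 were tested. For the interaction of genotype with 12 h of culture the count was 0, but 1 with DESeq2 and 0 to 1 when single libraries were left out. At 24 h it was 0, and 1 with DESeq2. Adding the embryo as a replicate block to the 18 libraries left the counts at 10 and 10 members lower in culture and 0 for both interactions and for 24 h against 12 h, and changed no call. Of 1218 values of single members under an alternative, 1168 kept direction and side of the threshold and 15 reversed. Leaving out single libraries at E11.5, Csf1r gave -0.13 to 0.4325, Tyrobp -0.4606 to 0.0328 and Laptm5 -0.2521 to 0.1199. With a term for sex Tyrobp was -0.12 at E14.5. C3ar1 between ages was 0.0018 at a pseudocount of 5, 0.0547 with edgeR and 0.0498 with DESeq2, and -0.1285 to 0.1459 when single libraries were left out. The cause of these changes was not tested. With 3 embryos a genotype and 15 to 77 reads over the 10 members in a culture, differences between genotypes in culture are not detectable unless they are large. TMM rescaling moved no median of all genes by over 0.1 (log2) and changed no count.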
